A study of Mus musculus with 14 samples.

Results

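Cells transformed by the leukemia fusion gene MLL-AF9 were compared with bone marrow preparations rich in stem and progenitor cells of the blood (HSPCs) from mice that lack Mir139. All 6 MLL-AF9 cultures and all 4 Mir139KO HSPC preparations among the 14 samples of the study were used, and the genes described are the 16953 of 52550 counted genes that had at least 10 counts in at least 4 of these 10 samples. The other 4 samples, WT HSPCs, entered the comparison of the Mir139KO reference with WT, 1 refit with all samples and the count of genes at 0 in every library. MLL-AF9 cells showed higher counts of the HOXA homeobox genes, the fusion partner gene family member Aff2, the RNA-binding protein gene Igf2bp3, the lipase gene Lipg, the Stefin A protease inhibitor genes and Hpgd. They showed lower counts of most erythroid, megakaryocytic, lymphoid, plasma cell, mast cell and stromal genes tested, together with late granule genes, histone genes and ribosomal protein genes.

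The Mir139KO HSPCs came from femur and tibia of C57BL/6 mice of 8 to 20 weeks in which Mir139 had been deleted with paired Cas9 nickases, and they carried no fusion gene. The MLL-AF9 cells were made from WT C57BL/6 HSPCs of the same age range, so their Mir139 gene was intact. They were kept overnight in serum-free medium with IL-3, stem cell factor (20 ng/mL), and IL-6 and GM-CSF at 10 ng/mL each. They were then transduced with a retrovirus, selected, and replated at least 2 times in methylcellulose. After that the study expanded such cells further in liquid medium with serum and the same cytokines. Replicates 1 to 3 carried the fusion in a vector with neomycin resistance (neo, selected at 800 µg/mL) and replicates 4 to 6 in a vector with puromycin resistance (puro). The enrichment kit depletes mature lineages but does not isolate a single cell type, and the labels do not say for each HSPC sample whether it was lysed at once or expanded. The fusion gene, the culture and the Mir139 genotype all differ between the groups and cannot be told apart here. The labels also do not state whether replicates were separate mice or separate transductions, so p-values measure only the spread between these samples.

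MLL, also called KMT2A, is a histone H3 lysine 4 methyltransferase that keeps HOX genes on in early progenitors. In MLL-AF9 its DNA-binding part is joined to AF9 (Mllt3), a protein of the transcription elongation machinery, and the fusion holds HOXA genes and their cofactors on in cells that would otherwise differentiate. Mir139 lies in the first intron of Pde2a and has been described as a tumor suppressor in blood cancers. A mature miRNA finds its messengers mainly by pairing of its seed, bases 2 to 8, with sites in their 3′ untranslated regions.

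Both mature miRNAs of the deleted gene are shown because the reference group lacks them, while their gene is intact in the MLL-AF9 cells. The study reported by qPCR that both were reduced in MLL-AF9 cells relative to HSPCs with an empty vector. Their positions in build GRCm38.p6 are chr7:101475382-101475403 for miR-139-5p and chr7:101475418-101475439 for miR-139-3p, both on the plus strand, with the seed in capitals.
mmu-miR-139-5p: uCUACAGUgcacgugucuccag
mmu-miR-139-3p: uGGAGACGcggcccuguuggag
Of the target genes that the study followed, Eif4g2, which encodes a translation initiation factor, holds a match to the 5p seed in its longest annotated 3′ untranslated region. It lies at positions 353 to 359 of 4945 bases and is shown in capitals with the bases around it.
Eif4g2 site: caacactgaatACTGTAGagatgcacttt
The 7 letters ACTGTAG did not occur in the longest annotated 3′ untranslated regions of Hpgd (841 bases) and Elavl1 (4221 bases). Shorter matches were not searched for, so their absence does not show that Hpgd lacks a site. The study reported Hpgd, Eif4g2 and Ptprt as direct targets, from luciferase assays of predicted sites and mutated controls.

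Library totals ran from 35016668 to 42404735 counts in Mir139KO HSPCs and from 35629341 to 43407331 in MLL-AF9 cells. The noncoding RNA gene Gm26917, which contains ribosomal RNA sequence, took 35.1%, 21.3%, 21.9% and 32.7% of the counts in Mir139KO replicates 1 to 4 and between 7.55% and 10.4% in MLL-AF9 cells. Values below are normalised read counts, that is counts scaled to a common library size with TMM factors (CPM). In a principal component analysis, the first component held 77.0% of the variance and separated the groups, and the second held 9.70% and set MLL-AF9 replicates 4 and 6 apart from replicates 2, 3 and 5. Replicates 4 and 6 were the most alike of all pairs but differed by more than sampling noise (chi-square per degree of freedom 9.28), and they were counted as 2 samples. The myeloid granule genes Mpo and Prtn3 were present in every library. The T cell marker Cd3e was between 5.53 and 12.3 CPM in Mir139KO HSPCs and had 1 count over all MLL-AF9 libraries. Itgam, a myeloid marker, could not be judged for the reason given next.

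The counts cover whole gene spans and not only exons, which bears on every gene named. Among protein-coding genes with at least 90% of their exon bases outside other exons, 848 of 877 (96.7%) were listed at 0 in all 14 libraries where no base of the span from start to end lay outside other genes. Where at least 90% of the span stood alone, 2474 of 16522 (14.97%) were at 0. Of the 877 fully covered genes, 591 had at least 90% of the span outside genes of the same strand, and 572 of these (96.8%) were at 0. Reads in introns were therefore counted with their gene, strand appears not to have been used, and reads in overlapping genes were dropped. Genes listed at 0 for this reason include Hoxa3, Hoxa4, Hoxa5, Hoxa6, Xist and Mir139 itself, while Pde2a had 7 counts and Itgam 16 over all libraries. For this reason Mir139 could not be used to check the knockout label, and a 0 for these genes says nothing of their expression.

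MLL-AF9 cells differed from Mir139KO HSPCs in most genes. At a Benjamini-Hochberg adjusted p under 0.05 in edgeR's quasi-likelihood test, 11741 of 16953 genes (69.3%) were called, 6325 higher (37.3%) and 5416 lower (31.9%). The groups did not overlap for 9850 genes (58.1%). A gene at or near 0 in 1 group could pass the count filter only through the other, so counts and medians of the lists below describe the genes that passed and are not independent evidence of a direction. The median log2 fold change was 0.16 over all genes, beside which the medians of gene lists below are to be read, and the median of its size was 1.45. Among called genes, 3742 were higher and 2111 lower by at least 2 on the log2 scale, and 290 were higher and 432 lower by at least 6. Scaling by total counts alone moved the median of all genes to 0.84 and the share of calls that were higher from 53.9% to 71.4%. Counts of members below use the TMM factors and depend on that choice. They are to be read beside the shares of all genes, 37.3% higher and 31.9% lower. With total counts only, list medians turned from -0.19 to 0.555 (PRC1), -0.17 to 0.54 (CDK inhibitors and D cyclins), -0.19 to 0.60 (glycolysis and hypoxia) and -0.39 to 0.26 (Eph receptors). Those of the MYC network and of DNA methylation moved from -0.72 to -0.06 and from -0.77 to -0.08. In 6 refits (total counts only, a correction for GC content, neo or puro cultures only, and only the Mir139KO libraries with a high or a low share of Gm26917), 5320 genes were called the same way in all 6, 2476 higher and 2844 lower.

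The difference followed gene length. Among protein-coding genes split into 5 equal groups by span, the median log2 fold change was -1.04 in the shortest group (255 to 8689 bases), -0.40 in the next, 0.16 in the middle, 0.64 in the fourth and 1.32 in the longest (72935 to 4434882 bases). In the shortest group 464 genes were higher and 1523 lower, and in the longest 1623 were higher and 455 lower. After the GC correction the medians were -0.53, -0.28, -0.02, 0.31 and 0.90, still rising with span. Gene classes differed too. Of 781 lincRNA genes 429 were higher and 95 lower (median 1.63), whereas processed pseudogenes, which lack introns, had 96 higher and 423 lower of 772 (median -1.14). The part of span in the difference between these classes was not tested. The nuclear-retained RNAs also differed. Malat1 stood at 129, 159, 162 and 123 CPM in Mir139KO HSPCs and at 2043 to 9314 (median 4066) in MLL-AF9 cells, with a log2 fold change of 5.15 (SE 0.54 with adjusted p = 7.05e-06), and Neat1, the scaffold RNA of paraspeckles, had a log2 fold change of 3.45. Share of unspliced RNA, RNA quality and library preparation were not measured, and their part in the trend was not tested.

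**Figure D1:**
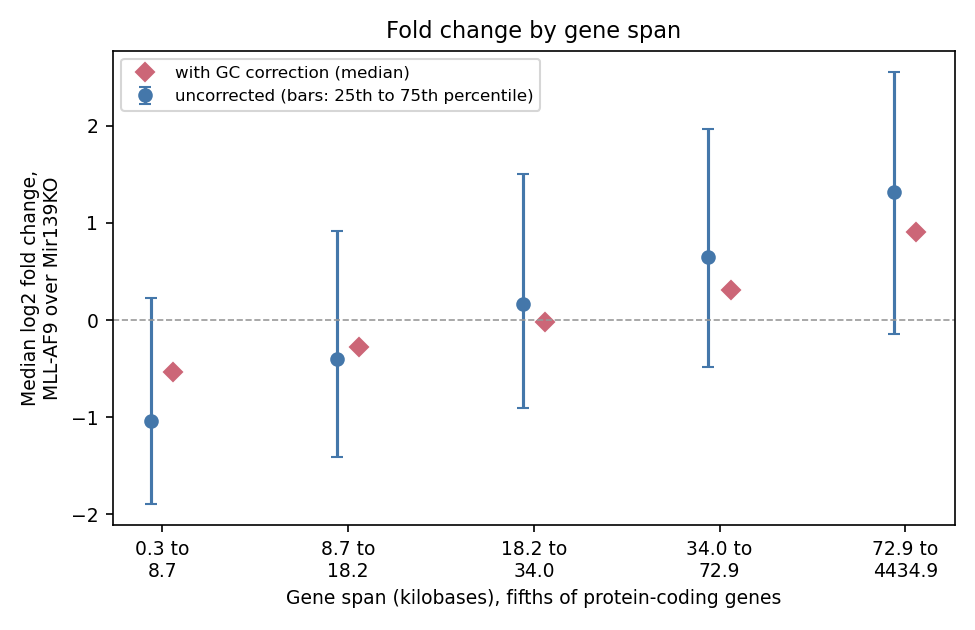
Median log2 fold change of MLL-AF9 cells over Mir139KO HSPCs (vertical axis) in 5 equal groups of protein-coding genes ordered by gene span (horizontal axis, shortest first), without and with the correction for GC content; bars run from the 25th to the 75th percentile of the uncorrected values. The uncorrected medians rise from -1.04 to 1.32 and the corrected ones from -0.53 to 0.90.

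The HOXA cluster, the best known target of MLL fusion proteins, was higher in each gene that could be tested. These were 7 of its 11 genes, which were all higher and did not overlap between the groups, with a median log2 fold change of 5.15 (5.83 with total counts only). Hoxa9, whose product drives self-renewal of myeloid leukemia cells with Meis1, lies at chr6:52223100-52231089. It stood at 3.99, 6.17, 6.16 and 4.89 CPM in Mir139KO replicates 1 to 4 and at 129 to 169.7 (median 145) in the 6 MLL-AF9 cultures. The cultures differed little from each other, and all stood above every Mir139KO library, with a log2 fold change of 4.81 (SE 0.24 with adjusted p = 4.31e-08). Hoxa10 rose from 0.975, 1.07, 1.13 and 1.20 CPM to between 55.1 and 127 (median 83.9), a log2 fold change of 6.32 (SE 0.37 with adjusted p = 1.55e-07). Replicates 4 to 6 held the highest 3 values of Hoxa10. The genes at the 5′ end of the cluster had no count in any Mir139KO library. Hoxa11 was at 8.19 to 50.3 (median 20.1) CPM in MLL-AF9 cells, at least 1020-fold higher when the Mir139KO group is set at a floor of 3 counts over its 4 libraries, which covers counting error only, and Hoxa13 was at 0.124 to 5.34 (median 1.09) CPM, at least 81-fold higher.

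In the other HOX clusters, 25 of 28 genes did not reach the count filter. Hoxb13 was higher, from 0.0928, 0.0307, 0.0262 and 0 CPM to between 2.48 and 5.62 (median 4.85), with a log2 fold change of 6.85 (SE 0.61 with adjusted p = 2.36e-06). Hoxb3 was called higher with a log2 fold change of 2.61 (SE 1.06 with adjusted p = 0.0420), but its values overlapped. Replicates 4 and 6 had 21.7 and 17.2 CPM of Hoxb3, and no other culture exceeded 1.47. Its call was lost without any single Mir139KO library and without MLL-AF9 replicate 4 or 6 (log2 fold change 1.89 without replicate 4, edgeR adjusted p = 0.0941).

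Of 17 known MLL fusion targets outside the HOXA cluster, 11 were higher and 2 lower, with a median of 3.47 (4.13 with total counts only and 2.56 with the GC correction). Meis1 and Pbx3, homeobox cofactors of HOXA9 that were named here after their values were seen, had log2 fold changes of 4.39 and 4.66. Meis1 stood at 19.1, 29.3, 27.9 and 17.1 CPM in Mir139KO HSPCs and at 134 to 984 (median 359.7) in MLL-AF9 cells, and Pbx3 at 6.59, 10.99, 10.96 and 7.80 and at 64.7 to 547 (median 197), with no overlap for either. Cdk6, a kinase that drives entry into S phase, was at 137, 366, 337 and 176 CPM in Mir139KO HSPCs. It was at 469.6 to 1341 (median 959.6) in MLL-AF9 cells, with a log2 fold change of 1.87 (SE 0.36 with adjusted p = 6.11e-04) and no overlap. Eya1, a transcription cofactor and phosphatase, divided the cultures. It stood at 255, 449 and 266 CPM in puro replicates 4 to 6, at 3.74, 4.12 and 0.424 in neo replicates 1 to 3, and at 1.67, 3.65, 2.39 and 1.42 in Mir139KO HSPCs. Its difference between puro and neo cultures had a log2 value of 6.86 with an adjusted p of 0.0310 in edgeR. With neo cultures only, Eya1 had a log2 fold change of 0.42 over Mir139KO HSPCs and was not called. Myc, a master regulator of growth, was lower, from 257, 297, 322 and 366 CPM to between 57.5 and 217 (median 118), with a log2 fold change of -1.29 (SE 0.36 with adjusted p = 0.00636), and its call was lost under total counts only and under the GC correction.

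**Figure D2:**
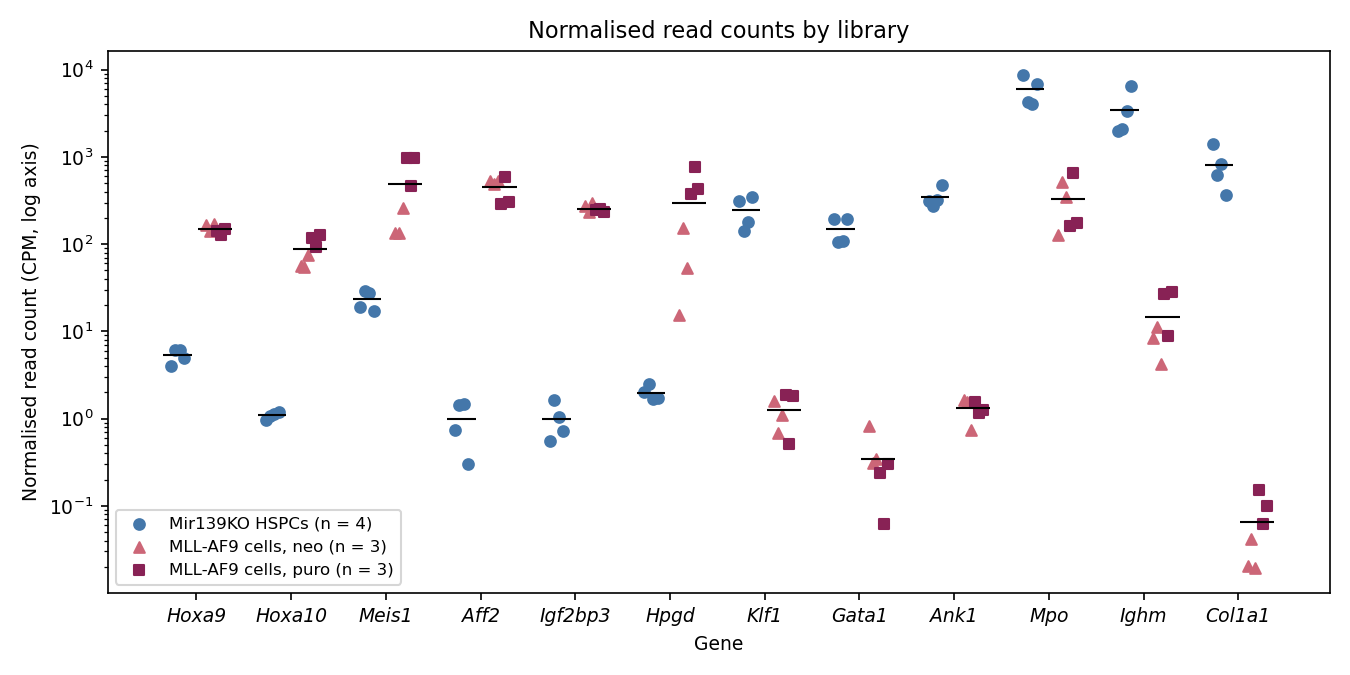
Normalised read counts (CPM, log axis) of 12 genes in each library; circles are the 4 Mir139KO HSPC libraries, triangles the 3 neo and squares the 3 puro MLL-AF9 cultures, and horizontal bars are group means. For each gene drawn, all MLL-AF9 values stand above or all stand below the Mir139KO values.

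Of 26 genes of the MLL complex and of the elongation complexes that MLL fusions recruit, 12 were higher and 9 lower, near the shares of all genes, with a median of 0.61 that turned to -0.28 with the GC correction. Within the AFF family of elongation scaffolds, Aff2 and Aff3 moved in opposite directions. Aff2 stood at 0.743, 1.44, 1.47 and 0.300 CPM in Mir139KO HSPCs and at 287 to 595 (median 509) in MLL-AF9 cells, with a log2 fold change of 8.82 (SE 0.55 with adjusted p = 2.34e-07). Aff3 went from 81.7, 84.8, 96.3 and 87.7 CPM to between 0.0413 and 0.517 (median 0.160), with a log2 fold change of -8.69 (SE 0.61 with adjusted p = 5.05e-07). Neither gene's groups overlapped, and Aff1 rose by a smaller step, with a log2 fold change of 1.41. Mllt10, which binds the methyltransferase Dot1l, rose from 31.5, 45.4, 47.2 and 36.96 CPM to between 227 and 310.1 (median 263), with a log2 fold change of 2.73 (SE 0.22 with adjusted p = 1.07e-06). Dot1l itself was lower, with a log2 fold change of -1.12, as was the MLL cofactor Men1 (-2.30). The call of Dot1l was lost with the GC correction (-0.07) and with total counts only. Mllt3, the mouse AF9 gene, was higher with a log2 fold change of 1.27, but its value with the GC correction was -0.30. Whether reads of the fusion transcript were counted at Mllt3 or Kmt2a was not tested. Mllt6 was called lower and was also lower in neo than in puro cultures, at 1.49, 3.45 and 2.97 CPM against 24.6, 24.9 and 25.2, an adjusted p of 0.0271 in edgeR. Against Mir139KO HSPCs its call was lost with total counts only and with the GC correction.

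PRC2 methylates histone H3 at lysine 27 and PRC1 is its partner in gene silencing. Of 14 PRC2 genes, 6 were higher and 3 lower (median 0.37), near the shares of all genes. Suz12, a core subunit, stood at 7.15, 26.2, 13.3 and 10.3 CPM in Mir139KO HSPCs and at 86.9 to 196 (median 133) in MLL-AF9 cells, with a log2 fold change of 3.26 (SE 0.43 with adjusted p = 4.04e-05). The groups did not overlap, although 69.5% of the span of Suz12 stood alone. The methyltransferases Ezh1 and Ezh2 and the reader Eed were not called, with log2 fold changes of 0.11, 0.18 and 0.56 and adjusted p-values of 0.756, 0.635 and 0.113 in edgeR. With the GC correction Ezh2 was called lower (-0.79), and with total counts only Eed was called higher (1.14). Rbbp4, a histone-binding subunit, was lower, from 248, 255, 265 and 299.95 CPM to between 73.3 and 170.4 (median 102), with a log2 fold change of -1.23 (SE 0.28 with adjusted p = 0.00204), and was not called with total counts only. The accessory subunit genes Lcor and Lcorl were higher, with log2 fold changes of 3.78 and 4.51. Of 21 PRC1 genes, 9 were higher and 6 lower, also near the shares of all genes. The largest rises were those of Pcgf5 (3.02) and Rybp (2.67), and the largest falls those of Cbx2 (-3.48) and Phc1 (-2.65). Of 9 genes for DNA methylation and its removal, 2 were higher and 5 lower. Dnmt3l, a cofactor of new methylation, had a log2 fold change of 4.27 and the demethylase gene Tet2 2.66, whereas the maintenance genes Dnmt1 and Uhrf1 had -1.35 and -2.27. Neither maintenance gene was called with the GC correction.

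The reference group lacks miR-139, so the targets of this miRNA are read here against cells that cannot repress them through it. Its level in the MLL-AF9 cells, which the study reported as reduced, could not be measured here. Hpgd, whose product breaks down prostaglandin E2, was among the most changed genes. It stood at 1.996, 2.52, 1.68 and 1.72 CPM in Mir139KO HSPCs, and at 15.3, 153, 52.9, 375, 764 and 429.8 CPM in MLL-AF9 replicates 1 to 6. Every culture exceeded every Mir139KO library, and the puro cultures held the highest 3 values, with a log2 fold change of 7.24 (SE 1.07 with adjusted p = 8.75e-05). The puro cultures exceeded the neo cultures by 2.82 on the log2 scale, which did not pass the threshold (edgeR adjusted p 0.185). Eif4g2, which holds the site printed above, was at 191, 532, 579 and 259 CPM in Mir139KO HSPCs and at 273 to 1059.5 (median 459) in MLL-AF9 cells. The groups overlapped, and its log2 fold change of 0.51 (SE 0.45 with adjusted p = 0.327) did not pass. Elavl1, an RNA-binding protein, and Polr2m, a subunit that binds RNA polymerase II, were not called either, with log2 fold changes of -0.01 (SE 0.30) and -0.12 (SE 0.36). Elavl1 was called lower with the GC correction (-0.74). Ptprt did not reach the count filter.

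Medians of genes with and without a 5p seed match depended on the length of the untranslated region. Of 11989 tested genes with no ACTGTAG in the longest annotated 3′ untranslated region the median log2 fold change was 0.02, of 1483 genes with 1 match it was 0.61, and of 265 genes with 2 or more it was 0.68. Genes with matches also had longer untranslated regions. Within the longest of 3 equal groups of these regions (1768 bases or more), the medians were 0.58 without a match, 0.86 with 1 and 0.89 with 2 or more, and 0.16, 0.24 and 0.14 with the GC correction. Within the middle group they were -0.01 without a match, 0.32 with 1 and -0.44 with 2 or more (28 genes), and 0.07, -0.03 and -0.17 with the GC correction. Within the shortest group they were -0.36 without a match and -0.56 with 1 (97 genes), or -0.05 and -0.08 with the GC correction, and only 2 genes held more. Without the GC correction, genes with matches were thus above the rest in the longest group and below it in the shortest. In the middle group, genes with 1 match and with 2 or more lay on opposite sides of the rest. With the GC correction, genes with 2 or more matches in the longest group were not above those without. For the 3p site CGTCTCC the medians were 0.11 over 13208 genes without a match, 0.04 over 500 with 1 and 0.29 over 29 with 2 or more. Within the longest group they were 0.67 without a match, 0.19 with 1 (316 genes) and 0.48 with 2 or more (26 genes), and within the middle group 0.03 without a match and -0.23 with 1 (134 genes). In the shortest group they were -0.37 without a match and -0.55 with 1 (50 genes). Genes with 1 match to the 3p seed were thus lower than those without in each length group, whereas with the GC correction the medians without and with 1 match were 0.17 and 0.11, 0.06 and 0.03, and -0.06 and 0.25 from the longest group to the shortest. Counts over whole gene spans include unspliced RNA, which a miRNA does not act on, and the share of such reads was not measured.

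Of 25 genes of prostaglandin and leukotriene metabolism, 10 were higher and 6 lower, near the shares of all genes, with a median of 0.52. Ptgs2, the inducible cyclooxygenase, rose from 0.325, 0.153, 0.419 and 0.0429 CPM to between 2.68 and 11.4 (median 5.66), with a log2 fold change of 4.62 (SE 0.64 with adjusted p = 5.54e-05). Pla2g4a, the phospholipase that releases arachidonic acid, rose from 6.91, 17.3, 12.4 and 5.32 to between 123 and 185 (median 173), with a log2 fold change of 3.97 (SE 0.36 with adjusted p = 2.78e-06). Neither gene's groups overlapped. The lipoxygenase genes were lower. Alox15 fell from 17.3, 18.4, 17.7 and 19.4 CPM to between 0.0621 and 0.472 (median 0.288), a log2 fold change of -6.11 (SE 0.45 with adjusted p = 6.83e-07), and Alox12 had a log2 fold change of -5.06.

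Among genes whose log2 CPM averaged 3 or more and whose groups did not overlap, the largest rises included 3 genes of the Stefin A cluster, which encodes cysteine protease inhibitors of neutrophils. Of 8 Stefin A genes tested, 8 were higher, with a median of 8.65 and the same direction under each scaling. BC100530 stood at 0, 0.123, 0.210 and 0.0429 CPM in Mir139KO HSPCs and at 28.9 to 651 (median 311) in MLL-AF9 cells, with a log2 fold change of 11.62 (SE 1.14 with adjusted p = 4.62e-06). Stfa1 stood at 0.418, 0.276, 0.210 and 0.129 and at 18.3 to 273 (median 138), with a log2 fold change of 9.19 (SE 0.91 with adjusted p = 4.92e-06). Gm5483 had a log2 fold change of 7.55, and Stfa2, whose mean level lay below that limit, 11.51. Replicate 5 held the lowest value of these genes, 28.9 CPM of BC100530 and 18.3 of Stfa1, and even there no Mir139KO library came near. The Stefin A genes are near-identical copies, so reads may have been split between them or dropped, and the split between members is uncertain.

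Aff2 and the genes that follow started from under 2 CPM in every Mir139KO library. Lipg, an endothelial-type lipase that cleaves phospholipids of lipoproteins, stood at 0.743, 0.859, 0.917 and 1.29 CPM in Mir139KO HSPCs and at 200.4 to 375 (median 229) in MLL-AF9 cells, with a log2 fold change of 8.07 (SE 0.35 with adjusted p = 1.66e-08). Igf2bp3, an oncofetal RNA-binding protein, went from 0.557, 1.63, 1.05 and 0.729 to between 232 and 298 (median 248), with a log2 fold change of 7.98 (SE 0.37 with adjusted p = 2.52e-08). For both genes the 6 cultures lay within a 2-fold range above all Mir139KO libraries. Snx24, a sorting nexin, had a log2 fold change of 7.86, Lpar1, a receptor for lysophosphatidic acid, 7.73, and Cgnl1, a protein of cell junctions, 7.24. None of these 3 genes overlapped between the groups. A correction for GC content and the scaling by total counts alone left the direction of these rises unchanged.

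**Figure D3:**
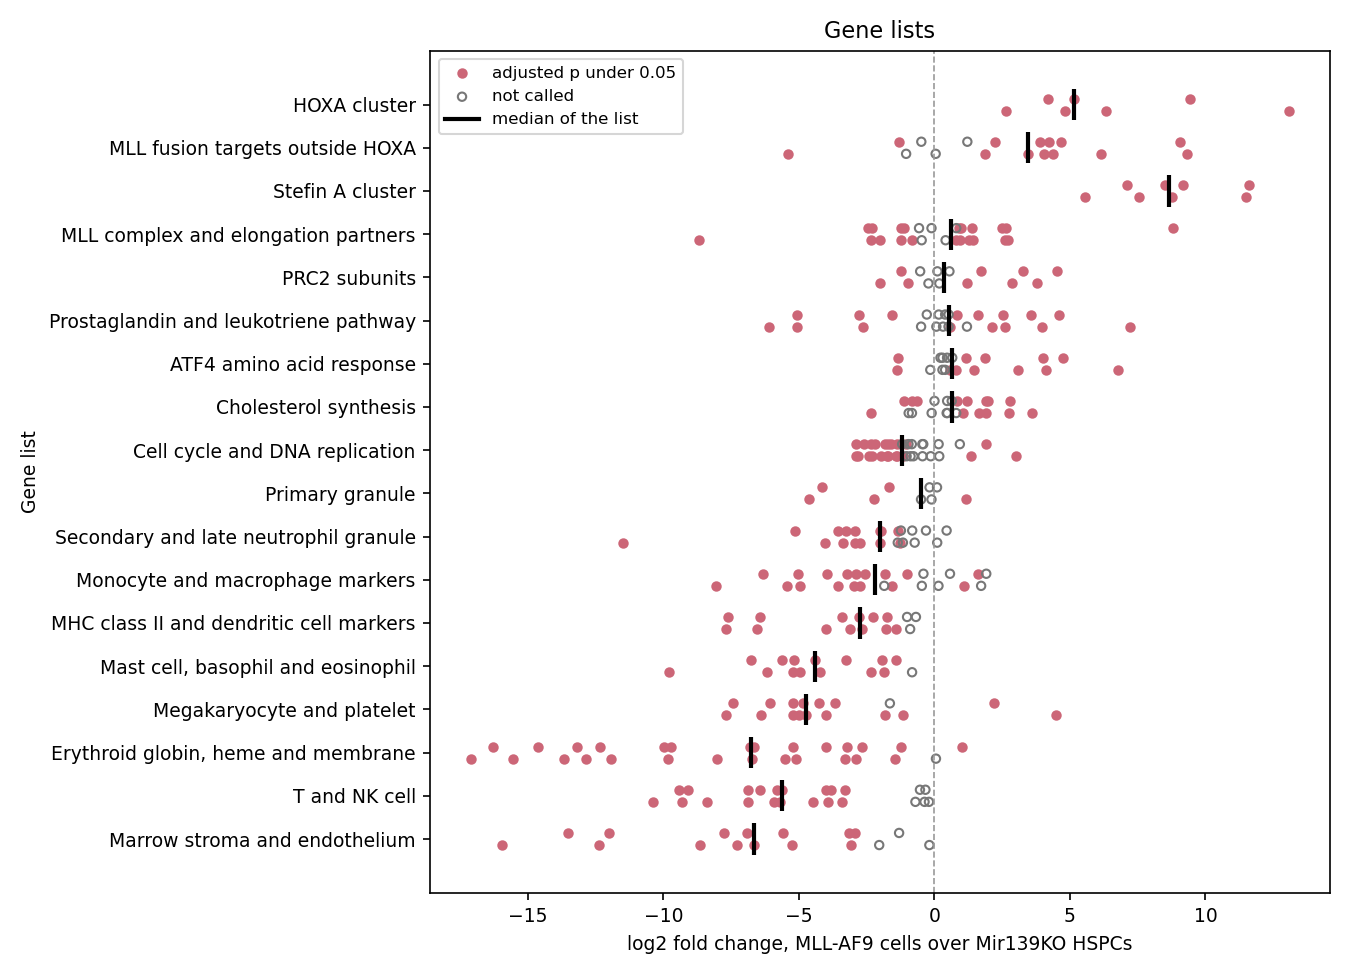
Log2 fold change of MLL-AF9 cells over Mir139KO HSPCs (horizontal axis) of each tested gene (points) in 18 gene lists (rows), with the median of each list as a vertical bar; filled points passed the test and open points did not. HOXA and Stefin A genes lie to the right of 0, and erythroid, megakaryocytic, T cell and stromal genes mostly far to the left.

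The erythroid program was far lower in MLL-AF9 cells. All 8 erythroid regulators tested were lower (median -7.45), and of 28 genes for globins, heme synthesis and the red cell membrane 26 were lower and 1 higher (median -6.77). Klf1, which switches on adult globin, stood at 313, 143, 179.96 and 346 CPM in Mir139KO HSPCs and at 0.517 to 1.84 (median 1.35) in MLL-AF9 cells, with a log2 fold change of -7.61 (SE 0.46 with adjusted p = 1.82e-07). Gata1, the master regulator of red cells and platelets, went from 194, 105, 109 and 194 to between 0.0621 and 0.826 (median 0.308), with a log2 fold change of -8.74 (SE 0.54 with adjusted p = 2.34e-07). Its partners Tal1 and Gfi1b had log2 fold changes of -9.69 and -9.05. Mir139KO replicates 1 and 4 held the higher values of Klf1 and Gata1, and they are also the libraries with the larger share of Gm26917. With only replicates 2 and 3 as reference, the median of the regulators was -6.96. Ank1, the anchor of the red cell skeleton and the largest fall by the same limits, went from 313, 276, 324 and 473 CPM to between 0.733 and 1.65 (median 1.41), with a log2 fold change of -8.03 (SE 0.31 with adjusted p = 1.02e-08). Car1 and the beta globin gene Hbb-bs had no count in any culture against 283, 432, 575 and 421 and 291, 184, 127 and 368 CPM in Mir139KO HSPCs, at least 41738-fold and 23635-fold lower. Tfrc, the transferrin receptor, which all dividing cells use, was the 1 gene called higher, with a log2 fold change of 1.03 (SE 0.43 with adjusted p = 0.0452), and its groups overlapped. Its direction turned with the GC correction (-0.87), and its call was lost without Mir139KO replicate 1, 3 or 4 or MLL-AF9 replicate 2, 3 or 5, with log2 fold changes from 0.78 to 1.09.

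Of 27 erythroid genes with a promoter in the RefSeq table, 8 (29.6%) held the GATA-type motif AGATAA on either strand within the 300 bases from 250 before to 50 after the start. This compares with 817 of 11641 tested genes (7.02%) and 3083 of 27025 promoters in all (11.4%). None of 6 HOXA promoters, 4 of 12 megakaryocyte promoters (33.3%) and 2 of 4 Stefin A promoters held it, so lists that were lower and a list that was higher both had members with these letters. Promoters of Epor, the erythropoietin receptor, and of Kel, a blood group protein of red cells, are shown because the motif, in capitals, lies within 60 bases before the start. Kel was chosen after its values were seen. Rhd, another gene of the erythroid lists, met the same limit, with the motif 43 bases before the start, and is not shown. Its log2 fold change was -5.09. The promoters shown come from build GRCm38.p6, both on the minus strand, at chr9:21963527-21963826 for Epor and chr6:41704276-41704575 for Kel.
Epor promoter: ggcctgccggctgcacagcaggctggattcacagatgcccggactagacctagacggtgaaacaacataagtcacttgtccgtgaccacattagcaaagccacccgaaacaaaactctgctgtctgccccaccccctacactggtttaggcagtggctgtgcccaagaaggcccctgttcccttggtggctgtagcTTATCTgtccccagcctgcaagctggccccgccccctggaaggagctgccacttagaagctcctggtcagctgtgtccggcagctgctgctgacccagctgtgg
Kel promoter: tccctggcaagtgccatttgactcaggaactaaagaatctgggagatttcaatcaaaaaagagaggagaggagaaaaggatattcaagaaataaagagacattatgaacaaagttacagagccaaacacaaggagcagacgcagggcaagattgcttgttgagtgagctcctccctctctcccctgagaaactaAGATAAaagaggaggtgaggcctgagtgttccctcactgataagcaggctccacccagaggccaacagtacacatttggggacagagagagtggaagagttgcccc
Epor had a log2 fold change of -7.30 and Kel of -12.34. A match of these letters is a description of the sequence and does not show that a factor was bound.

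Megakaryocyte and platelet genes were also lower, 14 of 17, with 2 higher and a median of -4.73. Tubb1, the tubulin of platelets, and Gp6, their collagen receptor, had log2 fold changes of -7.43 and -6.41. Both genes called higher are also used outside this lineage. Thbs1, a matrix glycoprotein that platelets and macrophages release, stood at 129, 81.8, 223 and 69.6 CPM in Mir139KO HSPCs and at 724 to 4099.5 (median 3239.7) in MLL-AF9 cells, with a log2 fold change of 4.48 (SE 0.59 with adjusted p = 3.65e-05). Fli1, an ETS transcription factor of stem cells and megakaryocytes, rose from 81.03, 147, 145 and 78.9 to between 419.8 and 669 (median 519), with a log2 fold change of 2.20 (SE 0.27 with adjusted p = 2.65e-05).

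Immunoglobulin RNA was present in Mir139KO HSPCs and almost missing from MLL-AF9 cells. Immunoglobulin variable segments summed to 4345, 2841, 3213 and 5418 CPM in Mir139KO replicates 1 to 4 and to between 0.103 and 0.404 CPM in the cultures. Of 156 segments that passed the count filter, 132 had no count in any culture. These could pass only through the Mir139KO libraries, so their direction was set by the filter and their values are a description, with bounds between 86-fold and 25456-fold and a median bound of 1608.5-fold. The median log2 fold changes were -11.55 for heavy chain and -12.68 for light chain segments, or -10.23 and -11.05 with genes at 0 set at their bound. Igha, the constant region of IgA, stood at 4085, 2109.8, 2218 and 3352 CPM in Mir139KO HSPCs and had no count in any culture, at least 286890-fold lower. Ighm, the constant region of IgM, went from 1993, 2068, 3353 and 6492 to between 4.22 and 28.01 (median 9.997), with a log2 fold change of -7.89 (SE 0.65 with adjusted p = 1.40e-06). Jchain, which links IgM and IgA, had a log2 fold change of -12.44. In bulk samples such as these, fewer cells of a type and less RNA per cell cannot be told apart.

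Of 19 B lymphoid genes 17 were lower and 1 higher, with a median of -3.86. Pou2af1, a coactivator of B cells, had no count in any culture, at least 1676-fold lower. Bank1, a B cell scaffold protein, was the exception, with a log2 fold change of 4.83 (SE 0.81 with adjusted p = 2.10e-04). Of 12 plasma cell genes 10 were lower and 1 higher (median -3.12), but their sum was still 382 to 659.5 CPM in the cultures against 922 to 1177 in Mir139KO HSPCs. Of 23 T and NK cell genes 18 were lower and none higher (median -5.61). Il2rb, a receptor chain for IL-2 and IL-15, had a log2 fold change of -9.44, and Klrb1c, the NK1.1 antigen, had no count in any culture, at least 189-fold lower, although only 16.8% of its span stood alone. Mast cell, basophil and eosinophil genes were lower in 14 of 15 cases and higher in none (median -4.39). Prg2, the major basic protein of eosinophil granules, went from 282, 243, 151 and 158 CPM to between 0.418 and 3.80 (median 1.32), with a log2 fold change of -6.78 (SE 0.57 with adjusted p = 1.65e-06), and Fcer1a, the high affinity IgE receptor chain, had a log2 fold change of -9.79.

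Stromal genes were also mostly lower. Of 17 genes of marrow stroma and endothelium 14 were lower and none higher, with a median of -6.66, and their sum ran from 731 to 2303 CPM in Mir139KO HSPCs and from 2.60 to 11.5 in MLL-AF9 cells. Col1a1, a chain of bone collagen, stood at 1391, 613, 836 and 363 CPM in Mir139KO HSPCs and at 0.0193 to 0.150 (median 0.0519) in MLL-AF9 cells, with a log2 fold change of -13.52 (SE 0.61 with adjusted p = 2.25e-08). Mir139KO replicate 1 held the most Col1a1 and replicate 4 the least. Col1a2 had 694, 331, 452 and 193 CPM in Mir139KO HSPCs and 1 count over all cultures. Of the 18 genes of the list, 10 had fewer than 10 counts in every culture, Bgn among them with none. The Mir139KO preparations thus held RNA of stromal and lymphoid cells and immunoglobulin RNA that were far lower or at 0 in the cultures. The globin, heme and membrane list summed to 4456 to 6415 CPM in Mir139KO HSPCs and was still at 404 to 608 in the cultures. The part of this mixture in the differences of other genes was not tested.

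Genes of the granulocyte and monocyte lineage were present in MLL-AF9 cells, mostly at lower counts. Of 9 primary granule genes 4 were lower and 1 higher (median -0.49, or 0.24 with total counts only). Mpo, the peroxidase of the azurophil granule, stood at 8597, 4259, 4090.2 and 6773 CPM in Mir139KO HSPCs and at 127 to 655 (median 262) in MLL-AF9 cells, with a log2 fold change of -4.16 (SE 0.49 with adjusted p = 1.84e-05). Only 50.5% of the span of Mpo stood alone. Prtn3, a serine protease of the same granule, went from 1958, 1026, 853 and 1551 to between 134 and 512 (median 277), with a log2 fold change of -2.21 (SE 0.35 with adjusted p = 1.39e-04). No culture reached a Mir139KO library for either gene. Of 22 genes of secondary granules and late neutrophils 14 were lower and none higher (median -1.99). Retnlg, expressed late in neutrophil maturation, fell from 205, 142, 133 and 68.8 CPM to between 0 and 0.104 (median 0.0413), a log2 fold change of -11.49 (SE 0.56 with adjusted p = 3.10e-08). Ltf, the iron-binding lactoferrin, ranged from 3.06 to 262 (median 55.2) CPM in the cultures against 2864, 1143, 1168 and 1087, with a log2 fold change of -4.04 (SE 0.82 with adjusted p = 8.43e-04). Ngp, the neutrophilic granule protein, overlapped between the groups and was not called, with a log2 fold change of -1.24 (SE 0.57 with adjusted p = 0.0712). Replicate 5 had the lowest Ltf and Ngp of the cultures, 3.06 and 106 CPM, and replicate 1 the highest, 262 and 2202. Ngp was called lower without replicate 1 (-1.65) and without replicate 5 (-0.99).

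Among 24 monocyte and macrophage markers 15 were lower and 2 higher (median -2.20). Csf1r, the receptor for M-CSF, stood at 521, 331, 318 and 593 CPM in Mir139KO HSPCs and at 2.97 to 76.4 (median 7.95) in MLL-AF9 cells, with a log2 fold change of -3.95 (SE 0.85 with adjusted p = 0.00123). Replicates 4 and 6 had 76.4 and 69.1 CPM and no other culture over 8.69. Among those lower were C1qa, a complement subunit of macrophages, with a log2 fold change of -8.04, and Cd163, the scavenger receptor for hemoglobin, with -6.33. Adgre1, the F4/80 antigen, went the other way, from 18.4, 26.8, 24.4 and 23.1 CPM to between 40.7 and 106 (median 71.8), with a log2 fold change of 1.62 (SE 0.31 with adjusted p = 4.98e-04) and no overlap. Of 16 genes of MHC class II and dendritic cells 13 were lower and none higher (median -2.74). Cd74, the invariant chain of MHC class II, went from 356, 152, 136 and 287 to between 1.26 and 5.38 (median 1.84), with a log2 fold change of -6.54 (SE 0.49 with adjusted p = 7.47e-07).

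Of 17 myeloid transcription factors 3 were higher and 5 lower, with a median of 0.01. Runx1, required for blood formation, rose from 119.9, 194, 269 and 157 CPM to between 655 and 1329.96 (median 1015), with a log2 fold change of 2.45 (SE 0.30 with adjusted p = 2.54e-05), and Gfi1, a repressor of neutrophil progenitors, had a log2 fold change of 1.97. Cebpa, needed for the step to granulocyte and monocyte progenitors, fell from 346, 212, 188 and 316 to between 34.96 and 156 (median 82.4), with a log2 fold change of -1.58 (SE 0.42 with adjusted p = 0.00487). The neo cultures held the lowest 3 values of Cebpa, and its call was lost with total counts only and with the GC correction. Klf4, a factor of monocytes and macrophages, fell from 46.1, 85.8, 69.1 and 67.8 to between 1.11 and 2.41 (median 2.06), with a log2 fold change of -5.13 (SE 0.28 with adjusted p = 7.27e-08). Id2 had a log2 fold change of -1.47 and was not called with total counts only.

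Stem cell genes were largely lower, 11 of 20, with 2 higher and a median of -2.20. Cd34 went from 36.99, 54.2, 53.5 and 43.6 CPM to between 0.0413 and 1.72 (median 1.02), with a log2 fold change of -5.64 (SE 0.69 with adjusted p = 2.40e-05). Gata2, a factor of stem and mast cells, went from 250.4, 158, 180.1 and 227 to between 0.522 and 10.4 (median 5.80), with a log2 fold change of -5.21 (SE 0.78 with adjusted p = 9.40e-05). Kit, the receptor for stem cell factor and a marker of progenitors, stood at 156, 254, 284 and 204 CPM in Mir139KO HSPCs and at 44.5 to 125 (median 62.99) in MLL-AF9 cells, with a log2 fold change of -1.65 (SE 0.31 with adjusted p = 4.55e-04) and no overlap. Of 7 receptor genes for the cytokines in the medium, none was higher and 3 were lower. These were Kit, Il3ra, with a log2 fold change of -2.54, and Il6ra, with -1.75, which was not called with total counts only. The shared beta chain Csf2rb stood at 316, 252, 232 and 311 CPM and at 257 to 584 (median 326), overlapped and was not called, with a log2 fold change of 0.48 (SE 0.29 with adjusted p = 0.161). It was called higher with total counts only (1.25) and with the GC correction (1.24). Of 13 other growth factor receptors 3 were higher and 7 lower, among them Epor (lower) and Tgfbr1, a TGF-beta receptor with the highest log2 fold change (3.55). Of 10 genes induced by cytokine signalling 3 were higher and 1 lower. Socs2 and Cish, feedback inhibitors downstream of STAT5, rose from 0.603, 0.798, 0.708 and 0.815 to between 4.63 and 22.7 (median 12.9) CPM and from 4.78, 2.82, 2.46 and 3.77 to between 13.6 and 38.3 (median 20.9) CPM, with log2 fold changes of 4.16 and 2.65.

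Genes of the cell cycle were mostly lower. Of 37 tested, 21 were lower and 3 higher, with a median of -1.21 (-0.58 with total counts only). Mcm5, a subunit of the replicative helicase, stood at 1154, 601, 605 and 1159.6 CPM in Mir139KO HSPCs and at 30.8 to 238 (median 112) in MLL-AF9 cells, with a log2 fold change of -2.90 (SE 0.58 with adjusted p = 7.65e-04). Replicates 1, 4 and 6 had 48.8, 30.8 and 32.4 CPM and the others 238, 179 and 176. The genes called higher were Pola1, the catalytic subunit of primase-polymerase, Bub1, a spindle checkpoint kinase, and the proliferation marker Mki67. Pola1 rose from 11.3, 37.4, 21.05 and 17.5 CPM to between 71.3 and 315 (median 171), with a log2 fold change of 3.03 (SE 0.56 with adjusted p = 4.55e-04), whereas Mki67 overlapped between the groups, with a log2 fold change of 1.36 (SE 0.50 with adjusted p = 0.0275). The call of Mki67 was lost without Mir139KO replicate 1, 3 or 4 or MLL-AF9 replicate 2, with log2 fold changes from 1.08 to 1.29, and neither it nor Bub1 was called with the GC correction. All 58 replication-dependent histone genes tested were lower (median -3.74, -2.93 with total counts only), and 57 did not overlap. These genes are short and lack introns, and their messengers lack a poly(A) tail, which rRNA-depleted libraries do not require. Short genes were lower in general, with a median of -1.04 in the shortest span group. The part of these traits in the difference was not tested. Of 12 CDK inhibitors and D cyclins with their kinases 5 were higher and 4 lower, near the shares of all genes. Cdkn2a and Cdkn2b, both PRC2 targets that halt the cycle, rose from 0.325, 0.0614, 0.105 and 0.129 to between 0.621 and 4.95 (median 1.10) CPM and from 0.0928, 0.123, 0.0786 and 0.0858 to between 0.702 and 2.02 (median 1.54) CPM, with log2 fold changes of 3.84 and 3.92. Of 13 MYC network genes 3 were higher and 8 lower. Mycn had 10.9, 10.7, 10.96 and 11.8 CPM in Mir139KO HSPCs and at most 0.101 in any culture, and Mycl had no count in any culture, at least 710-fold lower.

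Of 19 targets of ATF4, the factor of the amino acid stress response, 10 were higher and 2 lower, with a median of 0.66. Slc7a11, the cystine importer, stood at 3.39, 2.36, 3.49 and 1.11 CPM in Mir139KO HSPCs and at 95.3 to 663 (median 263) in MLL-AF9 cells, with a log2 fold change of 6.77 (SE 0.71 with adjusted p = 7.80e-06). Trib3, a pseudokinase induced by ATF4, rose from 1.02, 0.737, 0.917 and 1.29 to between 17.4 and 51.2 (median 20.02), with a log2 fold change of 4.73 (SE 0.42 with adjusted p = 2.53e-06). Of 17 genes of fatty acid synthesis and lipases 8 were higher and 6 lower, near the shares of all genes, and no difference between pathways was tested. Me1, which supplies NADPH for lipid synthesis, was at 0.464, 0.307, 0.315 and 0.214 CPM in Mir139KO HSPCs, at 119.9, 73.4 and 59.2 in neo and at 9.01, 3.93 and 8.72 in puro cultures. All cultures exceeded the Mir139KO libraries, with a log2 fold change of 7.13 (SE 1.13 with adjusted p = 1.44e-04), and the puro cultures were lower than the neo cultures by a log2 difference of -3.53 (edgeR adjusted p 0.0310). Ces2g, a carboxylesterase, went the other way, from 256, 189.5, 235 and 323 CPM to between 1.45 and 2.68 (median 2.17), with a log2 fold change of -6.94 (SE 0.28 with adjusted p = 1.02e-08). Of 23 cholesterol genes 10 were higher and 4 lower (median 0.64). Of 26 genes of glycolysis and hypoxia 7 were higher and 7 lower. The hypoxia targets Vegfa and Bnip3 rose from 18.7, 16.5, 17.01 and 14.97 to between 95.5 and 304 (median 197) CPM and from 2.83, 2.98, 3.41 and 1.54 to between 12.5 and 30.2 (median 21.1) CPM, with log2 fold changes of 3.59 and 2.92.

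Of 25 interferon-stimulated genes 15 were lower and 2 higher (median -1.79). Oasl1 fell from 20.7, 9.94, 12.2 and 18.9 CPM to between 0 and 0.103 (median 0.0504), with a log2 fold change of -8.06 (SE 0.55 with adjusted p = 3.99e-07), and Ifih1, a sensor of double-stranded RNA, rose from 3.29, 9.33, 5.50 and 5.79 to between 19.8 and 44.2 (median 34.01), with a log2 fold change of 2.48 (SE 0.35 with adjusted p = 6.60e-05). Of 19 immediate early genes 6 were higher and 4 lower, with Egr1 at 2.44. Egr1 overlapped between the groups, with 139 CPM in MLL-AF9 replicate 1 and 13.3 to 51.7 in the other cultures. Its call was lost with only the Mir139KO libraries with a high share of Gm26917 as reference (log2 fold change 2.06). Over all genes 37.3% were higher and 31.9% lower, beside which this list and those that follow are to be read. Of 13 BCL2 family genes 3 were higher and 2 lower, with the proapoptotic Pmaip1 at 4.47 and the survival gene Mcl1 not called (0.32). Of 12 chemokine receptor genes 3 were higher and 6 lower, with Cxcr4, the receptor for CXCL12, at -2.37. Of 10 Eph receptor genes 3 were higher and 4 lower, with Ephb6 at -8.14. The 10 largest falls also included Car2, a carbonic anhydrase of red cells (-6.80), the potassium channel gene Kcnn4 (-6.78), the integrin gene Itgb7 (-6.19) and the cathepsin gene Ctse (-5.66). Of 7 surface protein genes that the study stained for, 1 was higher and 4 lower.

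Of 76 genes for cytosolic ribosomal proteins 69 were lower and none higher (median -1.66, -0.88 with total counts only), and of 73 nuclear genes of oxidative phosphorylation 64 were lower and 3 higher (median -1.39). Of 12 mitochondrially encoded genes 11 were higher and none lower, with a median of 1.96, but with the GC correction the median was -0.35, so their direction depends on that choice. Of 13 abundant noncoding RNA genes 3 were higher and 9 lower. Rn7sk, the RNA that holds the elongation kinase P-TEFb inactive, stood at 51827, 16755, 15766 and 36094 CPM in Mir139KO HSPCs and at 3298 to 4462 (median 3853) in MLL-AF9 cells, with a log2 fold change of -2.96 (SE 0.34 with adjusted p = 1.63e-05). Mir139KO replicates 1 and 4 held more Rn7sk than replicates 2 and 3, as they did Gm26917.

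The MLL-AF9 cultures differed among themselves in several groups of genes. Between puro and neo cultures 144 of 16503 genes (0.873%) were called. Without each culture in turn this count was 41, 0, 0, 5, 990 and 3 for replicates 1 to 6, so it and the calls between vectors given above rested on single cultures. Replicate 5 had almost no RNA from the Y chromosome. Uty, a Y-linked histone demethylase relative, was at 192, 167, 148, 228, 0.103 and 230.4 CPM in replicates 1 to 6 and at 5.06, 9.67, 7.42 and 5.32 in Mir139KO HSPCs. Ddx3y, a Y-linked RNA helicase, was at 0.0621 CPM in replicate 5 and at 65.0 or more in the others. The other 5 cultures stood above every Mir139KO library for both genes and replicate 5 below. Uty and Ddx3y were called higher (4.55 and 3.64 on the log2 scale) with overlapping groups, calls that limma-voom and the GC correction did not make, and Xist was among the genes that could not be counted. The labels do not give the sex of the mice. Replicate 3 differed in another way. For each gene the deviation from its median over the 6 cultures was taken, relative to the same deviation over all autosomal genes of the culture. In replicate 3 the 504 protein-coding genes on chromosome 1 had a median deviation of 0.36 on the log2 scale, while the other autosomes lay between -0.07 and 0.08. In the comparison with Mir139KO HSPCs, the chromosome 1 genes had a median log2 fold change of 0.55, and 0.45 without replicate 3, against -0.12 over 8311 autosomal genes of the same minimum level.

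**Figure D4:**
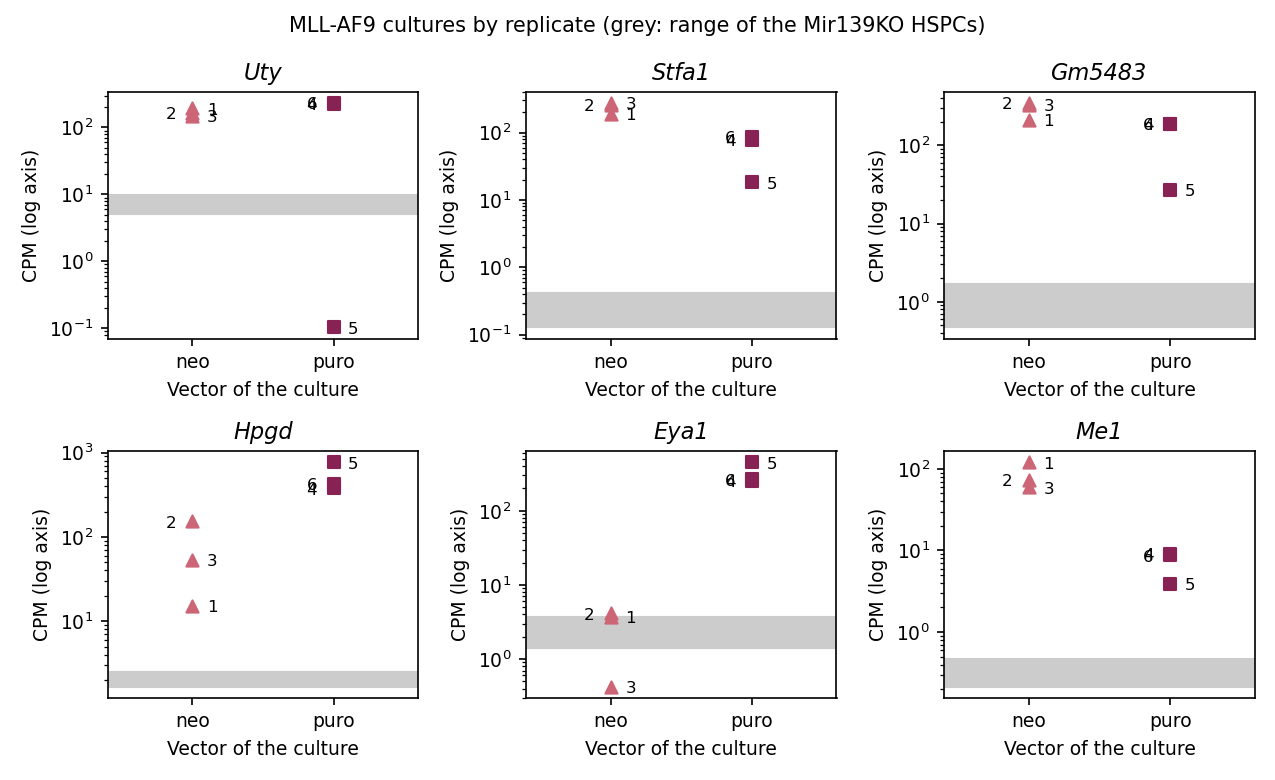
Normalised read counts (CPM, log axis) of 6 genes in each of the 6 MLL-AF9 cultures; triangles are neo and squares puro cultures, the number beside each symbol is the replicate, and the grey band spans the 4 Mir139KO HSPC libraries. Replicate 5 lies lowest for Uty, Stfa1 and Gm5483 and highest for Hpgd, and neo and puro cultures separate for Eya1 and Me1.

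The choice of the Mir139KO reference was checked against WT HSPCs. Of 15056 genes tested between Mir139KO and WT HSPCs, 0 (0.0%) were called by edgeR and 0 by DESeq2, and 86 had an unadjusted p under 0.05. A p that misses the threshold does not show that the 2 HSPC genotypes were equal for any gene.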

How the data were processed

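RNA was measured in 6 MLL-AF9 cultures, 4 Mir139KO HSPC and 4 WT HSPC samples with rRNA-depleted libraries. The deposited counts per gene were made by the authors with STAR 2.5.3e and featureCounts 1.6.0 on GRCm38, and the deposited table still holds genes at 0 in every library. The strand setting and the counted feature are not given in the sources used here. The 2 deposited tables held equal counts in all 735700 shared cells, and 10 columns of another series were not used. Totals of 35016668 to 43407331 counts per library set the precision, and floors of 3 counts cover counting error only.

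Genes that reached 10 counts in 4 or more of the 10 samples were tested with edgeR 4.0.16 (TMM factors, quasi-likelihood F test, robust dispersions) in R 4.3.3, with Benjamini-Hochberg adjusted p under 0.05 as the call. A prior count of 2 entered the log2 CPM values and the GC correction only, and fold changes kept edgeR's default prior. The SE is the size of the log2 fold change divided by the root of F. Alternatives used limma 3.58.1, DESeq2 1.42.0 and other scalings, filters, libraries and a GC correction (spline of 5 degrees of freedom). Tables were joined in Python 3.11.15 with pandas 2.3.3 and scipy 1.17.1. In simulated counts without GC bias, a log2 difference of 2 was given to 200 of 16686 genes, at a dispersion of 0.05. There edgeR found 200 of 200 changed genes and called 12 unchanged ones. With a simulated GC bias of a set strength between the groups, uncorrected edgeR called 9351 unchanged genes of 16737 run, and 9 with the GC correction. So few changed genes are unlike the data, where 69.3% of genes were called. The simulations therefore do not show how many of the 11741 calls are right, nor whether the TMM factors hold. In the data, fold change and GC content had a Spearman correlation of -0.42, and 0.02 after the correction, so the uncorrected calls may include effects of GC content. Gene positions came from GENCODE (52403 of 52550 genes placed), and miRNA and promoter sequences from RefSeq (GRCm38.p6). The members of the comparison and the gene lists were chosen with earlier results of these data known.

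Genes were named where they held the 10 largest rises or falls among calls without overlap whose log2 CPM averaged 3 or more, up to 3 rises and 3 falls and the highest mean of each list, the genes that the study names, and the 5 genes of highest mean in each group. Genes outside these limits are said to be so, and some genes that the limits pick are not reported here. No set test was run.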

Additional observations from a re-analysis of the deposited data

Results flagged for a closer look

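A single library stood apart from the rest of its group, by the gap to its nearest neighbour over the range of the group, in 11 of 257 checks over the genes named, where chance alone gives about 1 in 20. MLL-AF9 replicate 5 was the low library in 6 of them. It held 0.103 CPM of Uty against 148 to 230.4 in the other cultures, 0.0621 CPM of Ddx3y against 65.0 to 89.5, and 7.47 CPM of Stfa2 against 174 to 305. It also held 26.8 CPM of the Stefin A gene Gm5483 against 188 to 344, 2.38 CPM of Phc1 against 4.30 to 5.77, and 0.166 CPM of Alox12 against 0.908 to 1.49.

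MLL-AF9 replicate 1 held 0.703 CPM of Cdkn2b against 1.39 to 2.02 in the other cultures. A single count set replicate 6 apart for Cd3e (0.0202 CPM) and replicate 2 for Col1a2 (0.0209 CPM), with 0 in the other cultures for both genes. In the reference group, Mir139KO replicate 1 held 2864 CPM of Ltf against 1087 to 1168 in replicates 2 to 4, and 13.5 CPM of Cd163 against 22.2 to 23.7.

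For 5 named genes the difference from Mir139KO HSPCs itself differed between puro and neo cultures in edgeR's test of puro against neo. On the log2 scale the difference between vectors was 6.86 for Eya1 (0.42 over Mir139KO HSPCs in neo and 7.27 in puro), 4.36 for Cbx2 (-6.78 and -2.41), 3.24 for Mllt6 (-4.57 and -1.33), 2.23 for Pbx3 (3.29 and 5.53) and -3.53 for Me1 (8.17 and 4.62). Each vector was carried by 3 cultures, of which replicates 4 and 6 were the most alike of all pairs, and no gene was called between vectors when replicate 2 or 3 was left out.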

How the results depend on the processing

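Against 11741 genes called between MLL-AF9 cells and Mir139KO HSPCs, the alternatives gave from 8344 of 11636 tested (mean of at least 100 counts) to 13325 of 28276 (no filter), and 10868 to 11556 with 1 library left out. The lower count fell from 5416 to 3212 with total counts only. Between puro and neo cultures, 144 genes were called, but 1326 with DESeq2, 5 with MLL-AF9 replicates 4 and 6 summed, and from 0 to 990 with 1 culture left out. Between Mir139KO and WT HSPCs 0 genes were called by edgeR under each alternative. Of 124 genes that are named and called, 104 had the same direction and call in each alternative that tested them, and 19 lost the call in at least 1. Direction turned for 3 named genes. With the GC correction, alone and with the replicate block, the log2 fold changes were -0.79 and -0.77 for Ezh2, -0.30 and -0.19 for Mllt3, and -0.87 and -0.84 for Tfrc, and the cause was not tested.

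Deviations from the group means of same-numbered Mir139KO and MLL-AF9 samples had correlations of 0.191, 0.0996, 0.0857 and 0.0190. Differently numbered pairs ran from -0.151 to 0.105, and whether the numbers pair the samples was not tested. With the replicate block 11455 genes were called, and 214 between puro and neo cultures. The counts cannot tell spliced from unspliced RNA. Genes whose spans other genes cover in full or almost in full could mostly not be measured, and those covered in part may be undercounted.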
